A study of Mus musculus with 12 samples.

Results

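The genes of DNA replication and of the entry into S phase were followed in mouse heart. The set held 49 protein-coding genes, found by symbol and biotype among the 56748 genes of the deposited expression table. RNA was sequenced from hearts of wild-type mice and of mice labelled Csrp3 knockout, on postnatal days 1 (P1) and 21 (P21). Each of the 4 groups held 3 libraries. Csrp3 encodes muscle LIM protein, a part of the contractile apparatus, which the study's title connects with mitotic entry of cardiomyocytes. Strain, sex, knockout allele and any transgene are not given in the labels, and whether each library had an animal of its own is not said either. The p-values below reflect only the scatter of these samples, which may be technical.

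A cell copies its DNA in a fixed order of steps. The origin recognition complex, Cdc6 and Cdt1 load the ring-shaped MCM helicase onto DNA in G1, and Cdc45 and the GINS complex then turn that ring into the active helicase. Cyclin E with Cdk2 and the E2F transcription factors drive the step from G1 into S phase, and many replication genes are E2F targets. Mouse heart muscle cells divide before birth and leave the cell cycle in the first weeks of life, while other cells of the heart go on dividing.

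All 12 libraries held Csrp3 RNA, those labelled knockout too. Its FPKM (fragments per kilobase of a gene's length, adjusted by the authors for library size) at P1 was 183, 179 and 238 for wild type, against 168, 94.3 and 147 under the knockout label. At P21 the wild-type libraries had 1068, 1397 and 572, against 671, 1112 and 926. The groups did not overlap at P1 and overlapped at P21. The P1 log2 difference between genotypes was -0.58 (SE 0.37, adjusted p = 1, limma). That at P21 was -0.10 (SE 0.37, adjusted p = 0.920), so every genotype direction below rests on the labels. Which part of the gene was deleted is not given in the labels, so the level over the whole gene does not check them.

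Depth was 9.67 to 15.9 M (megareads) in genes per library. Wild-type P21 libraries 1 and 2 had the lowest totals, 10.2 M and 9.67 M, and the fewest genes above 0, 17344 and 15811 against 18348 to 20208 in the other P21 libraries. The library names of these samples end in an R that the labels do not explain. Mitochondrial genes took 9.50% to 21.8% of the reads. Heart muscle markers were present in all 12 libraries, with a summed FPKM over 10 genes of 9987 to 14717 at P1 and 22960 to 39310 at P21. The labels give the tissue as heart, and in such bulk RNA fewer cells of a type and less RNA per cell cannot be told apart. The sources used here do not say whether counting used strand, and 26 of the 49 genes overlap the span of another gene, whose reads cannot be told apart from theirs.

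The 49 genes were far better covered at P1 than at P21. The median number of reads per gene and library was 318.5 at P1 and 45.5 at P21. Of the 294 pairs of a gene and a P21 library, 55 had fewer than 10 reads and 9 had none. The mean FPKM was at least 1 for 46 genes at P1 and for 26 at P21. The test covered genes that reached an FPKM of 1 in 3 or more libraries, which kept 47 of the 49. Of these, 20 passed only with the help of P1 libraries, so that a lower value at P21 was built into their selection. They were Cdc6, Mcm2, Mcm5, Mcm10, Cdc45, Gins2, Pola1, Prim1, Prim2, Pole, Rrm2, Tyms, Chaf1a, Chaf1b, E2f1, E2f2, E2f7, E2f8, Ccne1 and Ccne2. The p-values of their falls, and their part in the counts of lower genes below, carry that selection. The remaining 27 passed on P21 libraries alone. Orc1, the largest subunit of the origin recognition complex, and Fen1, the flap endonuclease of lagging-strand synthesis, were not tested. The FPKM of Orc1 was 0.50 to 1.01 at P1 and 0.0245 to 0.557 at P21. The FPKM of Fen1 was 0.162 to 0.716 at P1, and it was listed at 0 in 3 of the 6 P21 libraries.

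**Figure D1:**
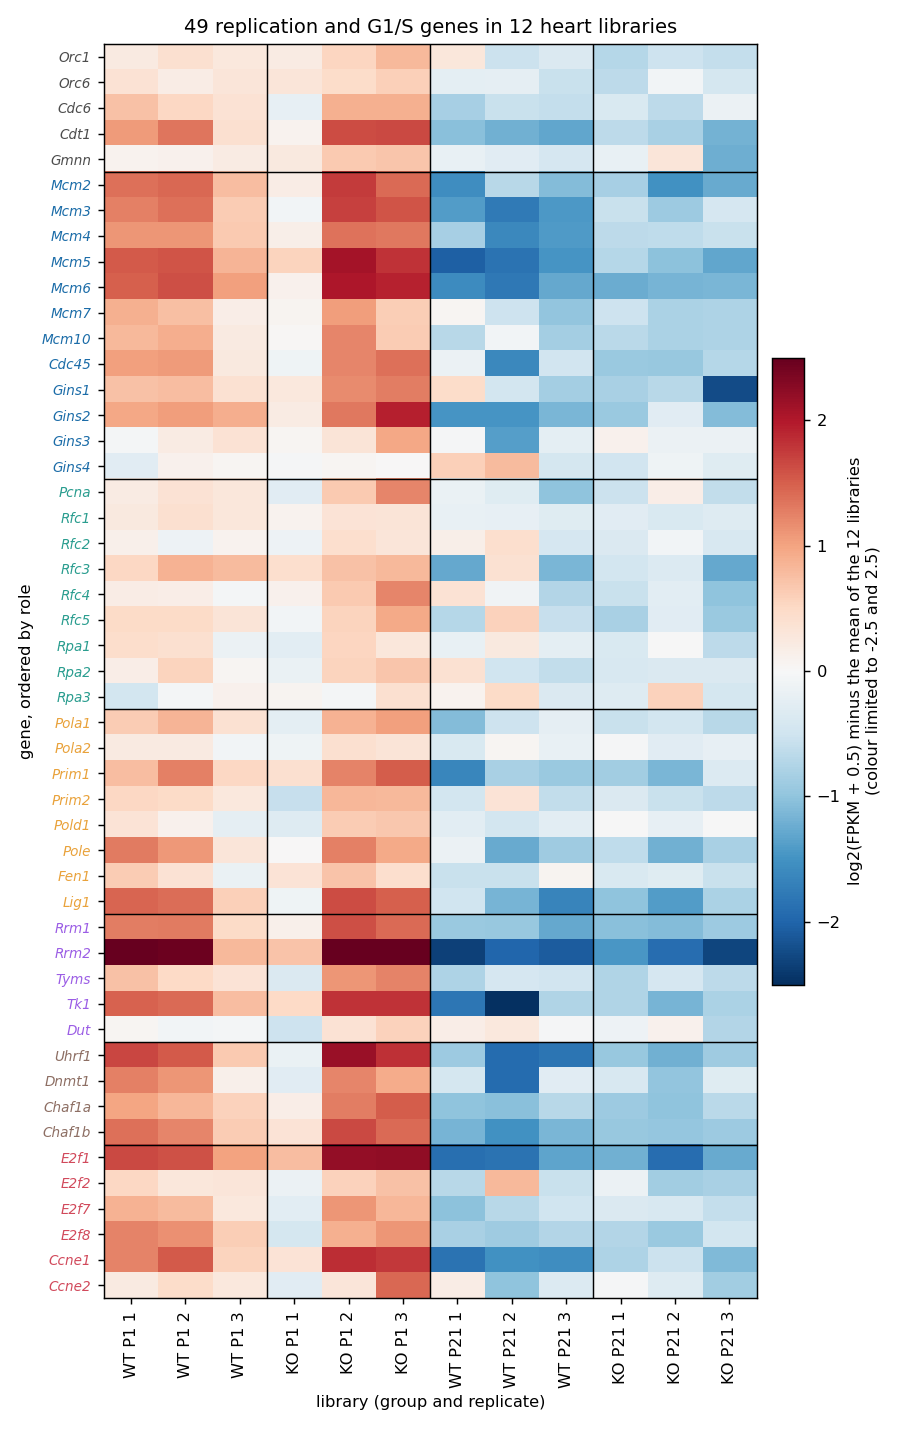
Colour gives log2(FPKM + 0.5) of each of the 49 genes in each of the 12 libraries, minus the mean of that gene over the libraries, with colour limited to -2.5 and 2.5. Rows are grouped by role and columns by group (WT, wild type; KO, labelled knockout); the P1 columns are mostly red and the P21 columns mostly blue, and KO P1 library 1 and WT P1 library 3 are the palest at P1.

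Most of these genes were lower at P21 than at P1 in wild type. Of the 47 tested, 30 fell and none rose (limma on log2(FPKM + 0.5), Benjamini-Hochberg over all genes, threshold 0.05). Among all 13537 genes tested, 23.3% fell and 21.5% rose. The median log2 change was -1.23 over the 47 genes and -0.04 over all genes tested, and 43 of the 47 changes were negative against 51.6% of all genes. All 3 P21 libraries lay below all 3 P1 libraries for 34 of the 47, against 27.5% of all genes. The fall counted 13 of the 27 genes that passed on P21 libraries alone and 17 of the 20 that needed P1 libraries. The median change moved with the pseudocount, to -1.92 with 0.1 and -0.91 with 1, and it was -1.91 with voom on the recovered reads. The count of lower genes was 30, 30 and 29 in those fits.

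In the hearts labelled knockout the same comparison gave 30 lower, none higher and all 47 changes negative. Among all genes 13.2% fell and 11.8% rose, and 50.8% of changes were negative. The median was -1.27 against -0.02 over all genes, and 34 genes did not overlap between ages, against 24.8% of all genes. The fall counted 15 of the 27 genes that passed on P21 libraries alone and 15 of the 20 others. The 2 age comparisons share no library, but they come from the same fit with a shared variance per gene, so their calls are not independent. They shared 27 of their 30 lower genes, which is 90% of each list. Over all genes tested, 1586 fell in both, which is 50.2% of the 3160 that fell in wild type and 88.7% of the 1789 that fell in the hearts labelled knockout. Cdc6, Dnmt1 and E2f7 passed only in wild type, and Gins1, Rfc4 and Rfc5 only in the hearts labelled knockout. Across the 47 genes the age changes in the 2 genotypes had a Pearson r of 0.918 and a Spearman rho of 0.903, against 0.835 and 0.821 over all genes tested, as a description over genes that are not independent.

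The size of the fall depends on the scaling. Rescaling each library to TPM moved the median change of all genes by -1.06 in wild type and by -0.63 in the hearts labelled knockout. The share of higher genes among all called genes then went from 48.0% to 8.25% in wild type and from 47.2% to 11.4% in the hearts labelled knockout. Under TPM all 47 genes were lower in wild type, where 62.1% of all genes were, and 46 in the hearts labelled knockout, where 36.3% of all genes were. Relative to all genes, the median change of the 47 was -1.20 as deposited and -1.30 under TPM in wild type, and -1.26 and -1.41 in the hearts labelled knockout. With mitochondrial genes and the top 20 genes left out of the scaling it was -0.90 and -1.20.

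Some markers of cell types also moved with age, and their part in the falls was not tested. Among all genes tested, 23.3% fell and 21.5% rose in wild type, so a count such as 2 of 7 does not set a list apart there. In the hearts labelled knockout 13.2% fell and 11.8% rose. The summed FPKM of 7 macrophage markers went from 31.9 to 53.8 over the P1 libraries to 145 to 398 over the P21 libraries, and of 6 tested 4 rose in wild type and 5 in the hearts labelled knockout. For 6 epicardial markers it went from 44.7 to 70.1 down to 8.72 to 31.3, and 4 of 6 fell in each genotype. Upk3b, Msln and Krt19 of the epicardial list were at 0 in at least 1 library. For 7 endothelial markers the sum was 183 to 235 at P1 and 229 to 414 at P21, and 2 of 7 rose in each genotype. For 7 smooth muscle and pericyte markers it was 163 to 308 at P1 and 271 to 830 at P21, and of 6 tested 1 fell and 1 rose in wild type, and 1 fell and 2 rose in the hearts labelled knockout. Tagln of that list was at 0 in at least 1 library. Of the 10 heart muscle markers, 5 rose in wild type, and 4 rose and 1 fell in the hearts labelled knockout. Of the 7 fibroblast markers, 3 fell and 1 rose in wild type, and 2 rose in the hearts labelled knockout.

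**Figure D2:**
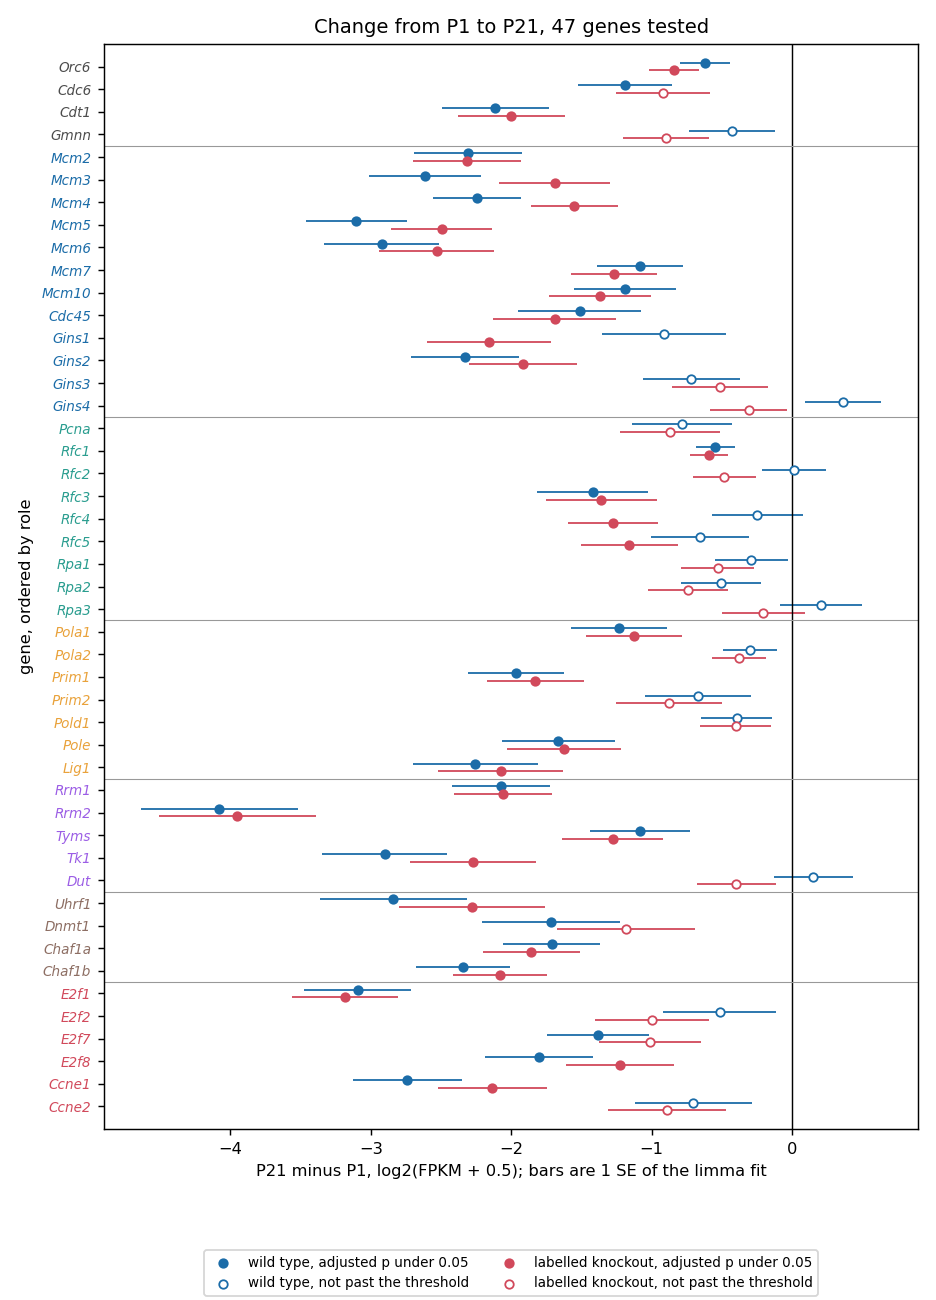
Points give the change from P1 to P21 in log2(FPKM + 0.5) for each of the 47 genes tested, blue for wild type and red for the hearts labelled knockout, with bars of 1 SE of the limma fit. Filled points have an adjusted p under 0.05; Rrm2 lies farthest to the left in both genotypes, and the points right of 0 are Gins4, Rfc2, Rpa3 and Dut in wild type.

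Since the genes moved together and many are known E2F targets, their promoters were read for E2F letters. The windows are those of RefSeq on GRCm38.p6, from 250 bases before to 50 after the gene's start, and 40 of the 49 genes matched by symbol, with 48 windows. The letters TTTNNCGC were searched on both strands, with the narrower forms TTTCCCGC and TTTGGCGC, which the first contains. The wider letters stood in 18 of the 48 windows, which is 37.5%, against 8.30% of the 12158 windows of all genes tested and 5.17% of all 32851 windows. The narrower forms stood in 27.1% of the windows, against 2.94% and 1.56%. The median GC content was 61.3% in the windows of these genes and 61.0% in those of all genes tested. The separate CCAAT box stood in 62.5% of the windows, against 37.4% of those of all genes tested. By gene, 17 of the 40 held a wider match, among them 5 of 8 helicase genes, 3 of 4 licensing genes and 1 of 8 genes of the clamp, clamp loader and RPA. Genes lower with age in wild type had the letters in 14 of 33 windows and tested genes that were not lower in 3 of 12.

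5 windows are shown because they span the range of the age change, with matches to the wider letters on either strand in capitals. Mcm5 (chr8:75109259-75109558, plus strand) and Mcm6 (chr1:128359656-128359955, minus strand) encode subunits of the helicase ring and fell strongly, Rrm2 (chr12:24708004-24708303, plus strand) fell the most on the log2(FPKM + 0.5) scale, and Pold1 (chr7:44548766-44549065, minus strand) and Rpa3 (chr6:8259092-8259391, minus strand) did not pass the test. Mcm6 and this choice of windows were picked after the values were seen. Each is written in the direction of its gene.
Mcm5: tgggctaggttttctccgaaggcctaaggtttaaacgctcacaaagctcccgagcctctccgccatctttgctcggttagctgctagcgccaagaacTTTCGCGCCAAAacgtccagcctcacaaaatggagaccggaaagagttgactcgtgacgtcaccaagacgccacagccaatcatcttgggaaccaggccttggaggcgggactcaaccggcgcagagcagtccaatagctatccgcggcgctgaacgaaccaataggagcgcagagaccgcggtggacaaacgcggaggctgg
Mcm6: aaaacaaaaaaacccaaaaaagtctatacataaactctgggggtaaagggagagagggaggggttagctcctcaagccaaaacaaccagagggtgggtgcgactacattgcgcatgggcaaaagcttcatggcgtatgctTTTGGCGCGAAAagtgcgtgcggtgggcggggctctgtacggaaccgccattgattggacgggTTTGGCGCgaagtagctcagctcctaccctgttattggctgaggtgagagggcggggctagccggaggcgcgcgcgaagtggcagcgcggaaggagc
Rrm2: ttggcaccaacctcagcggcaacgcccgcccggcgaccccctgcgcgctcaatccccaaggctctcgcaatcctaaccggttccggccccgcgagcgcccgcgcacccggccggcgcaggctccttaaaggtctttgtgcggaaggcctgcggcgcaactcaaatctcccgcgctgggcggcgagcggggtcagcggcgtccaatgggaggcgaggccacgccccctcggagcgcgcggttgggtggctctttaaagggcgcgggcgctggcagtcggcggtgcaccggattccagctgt
Pold1: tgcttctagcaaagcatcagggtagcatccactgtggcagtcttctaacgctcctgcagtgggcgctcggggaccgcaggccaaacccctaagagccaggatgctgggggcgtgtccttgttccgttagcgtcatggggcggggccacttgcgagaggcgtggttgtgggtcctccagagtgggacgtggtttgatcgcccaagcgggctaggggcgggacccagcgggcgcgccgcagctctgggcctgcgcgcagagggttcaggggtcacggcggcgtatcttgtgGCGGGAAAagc
Rpa3: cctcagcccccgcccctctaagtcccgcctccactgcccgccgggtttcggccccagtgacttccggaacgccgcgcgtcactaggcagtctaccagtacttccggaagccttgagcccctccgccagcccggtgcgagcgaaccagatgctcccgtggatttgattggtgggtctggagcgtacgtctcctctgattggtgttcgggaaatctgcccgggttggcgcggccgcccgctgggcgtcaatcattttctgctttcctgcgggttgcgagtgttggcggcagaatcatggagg
Mcm5 held 2 overlapping matches and Mcm6 held 3, a pair of which overlap. Pold1 held 1 match, after its start. Rrm2 and Rpa3 held none, which says only that these letters are not in their windows. A match describes the letters and not a bound site.

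Of the licensing genes, Cdt1 fell in both genotypes and Gmnn, its inhibitor geminin, did not pass the test in either. Cdt1 had an FPKM of 6.05, 7.49 and 3.67 in wild type at P1 and 1.03, 0.872 and 0.787 at P21. In knockout-labelled hearts it had 2.87, 9.23 and 9.41 at P1 and 1.52, 1.30 and 0.898 at P21. No P21 library reached any P1 library, and the log2 change was -2.11 (SE 0.38, adjusted p = 0.00142) in wild type and -2.0 (SE 0.38, adjusted p = 0.00351) in the hearts labelled knockout. Gmnn was the most abundant licensing gene, with 17.9, 18.2 and 19.4 FPKM in wild type at P1 and 14.7, 13.7 and 12.5 at P21. In hearts labelled knockout it had 19.9, 26.8 and 27.3 FPKM at P1 and 14.8, 20.7 and 6.87 at P21. The wild-type groups did not overlap, but the change was -0.43 (SE 0.31, adjusted p = 0.272), and -0.90 (SE 0.31, adjusted p = 0.0512) in the hearts labelled knockout. The ratio of Cdt1 to Gmnn FPKM was 0.144 to 0.413 over the P1 libraries and 0.0629 to 0.131 over the P21 libraries. Orc6, the smallest origin recognition subunit, had 5.75, 5.09 and 5.52 FPKM in wild type at P1 and 3.66, 3.67 and 2.85 at P21. The knockout-labelled values were 5.53, 6.25 and 6.88 FPKM at P1 and 2.62, 4.14 and 3.10 at P21. Orc6 fell in both genotypes without overlap, by 0.62 on the log2 scale (SE 0.18, adjusted p = 0.0159) in wild type and by 0.84 (SE 0.18, adjusted p = 0.00608) in the hearts labelled knockout. Without wild-type P1 library 1 the adjusted p of Orc6 in wild type was 0.0585. Cdc6, which helps load the helicase, changed by -1.19 (SE 0.33, adjusted p = 0.0138) in wild type, and by -0.92 (SE 0.33, adjusted p = 0.0659) in the hearts labelled knockout.

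The helicase genes, the largest role group, held the most calls, with 9 of 12 lower in wild type and 10 of 12 in the hearts labelled knockout. Of all genes tested, 23.3% and 13.2% were lower. By share in wild type, chromatin and methylation copying (4 of 4) and nucleotide supply (4 of 5) stood above them. Mcm5 had an FPKM of 10, 10.4 and 6.02 in wild type at P1 and 0.388, 0.514 and 0.807 at P21. Under the knockout label it had 4.88, 14.9 and 12.1 at P1 and 1.70, 1.30 and 0.968 at P21. Every P21 library lay below every P1 library, with a log2 change of -3.10 (SE 0.36, adjusted p = 0.000121) in wild type and -2.50 (SE 0.36, adjusted p = 0.000712) in the hearts labelled knockout. On the FPKM scale the wild-type P1 mean of Mcm5 was 15.5 times the P21 mean. Its wild-type P21 values rest on 12, 12 and 43 reads. Mcm5 passed the filter only with P1 libraries, so a lower P21 value was built into its selection. Mcm2, Mcm3, Mcm4 and Mcm6, which form the ring with Mcm5 and Mcm7, fell, with log2 changes of -2.92 to -2.25 in wild type and of -2.53 to -1.55 in the hearts labelled knockout.

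Mcm7 had the smallest log2 change of the ring subunits in both genotypes, a difference between genes that was not tested. Its FPKM was 14.2, 12.9 and 8.52 in wild type at P1 and 7.82, 5.06 and 3.55 at P21. In knockout-labelled hearts it had 7.82, 16.1 and 11.7 at P1 and 5.08, 4.11 and 4.19 at P21. The log2 change was -1.08 (SE 0.30, adjusted p = 0.0139) in wild type and -1.27 (SE 0.30, adjusted p = 0.0113) in the hearts labelled knockout. Its FPKM was 0.971 to 1.90 times the mean of Mcm2 to Mcm6 over the P1 libraries and 2.37 to 7.36 times that mean over the P21 libraries, without overlap. The highest of the 6 subunits was 1.63 to 2.55 times the lowest at P1 and 4.03 to 20.1 times at P21, and Mcm7 was the highest in every P21 library. The span of Mcm7 holds 3 microRNA genes and overlaps Cops6 and Ap4m1 on the other strand, and the part of their reads in its level was not tested. The adjusted p of Mcm7 in wild type was 0.0583 without P1 library 1 and 0.0522 without P1 library 2.

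**Figure D3:**
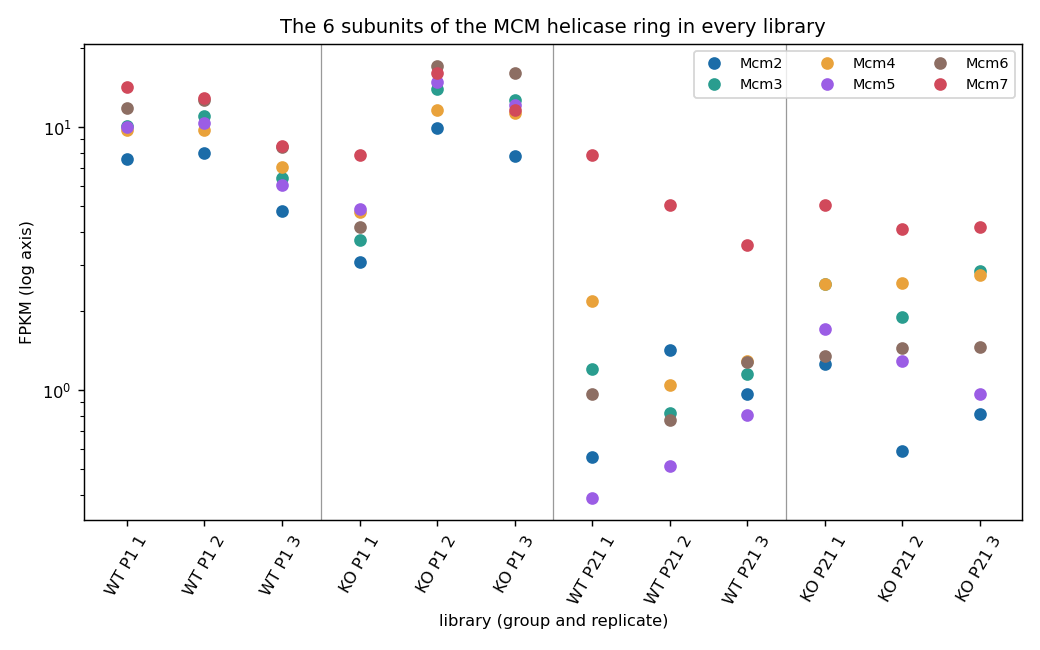
FPKM on a log axis is given for Mcm2 to Mcm7 in each of the 12 libraries (WT, wild type; KO, labelled knockout). The subunits lie within 2.55 times of each other at P1, and Mcm7 lies above the others in all 6 P21 libraries.

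Of the 4 GINS genes, whose proteins form a single complex in the active helicase, Gins2 fell in wild type, and Gins1 and Gins2 fell in the hearts labelled knockout. Gins2 changed by -2.33 (SE 0.39, adjusted p = 0.000874) in wild type and by -1.92 (SE 0.39, adjusted p = 0.00449) in the hearts labelled knockout. Gins4 had the highest FPKM of the helicase genes, with 12.8, 16.9 and 16.2 in wild type at P1 and 24.1, 27.5 and 11.5 at P21. In hearts labelled knockout it had 15.4, 16.3 and 15.9 at P1 and 11.2, 14.5 and 12.7 at P21. Its 2 highest values were the shallow wild-type P21 libraries 1 and 2. The change of Gins4 was 0.37 (SE 0.27, adjusted p = 0.290) in wild type and -0.31 (SE 0.27, adjusted p = 0.444) in the hearts labelled knockout. Without wild-type P21 library 3 it was 0.74 (adjusted p = 0.00500), and without libraries 1 and 2 it was -0.39 (adjusted p = 0.211). Gins1 changed by -0.91 (adjusted p = 0.112) in wild type and by -2.16 (adjusted p = 0.00500) in the hearts labelled knockout, where library 3 at P21 held 2 reads. Gins3 passed in neither genotype. Cdc45, which joins the ring and GINS, fell by 1.51 and 1.69, and Mcm10, which helps start unwinding, by 1.19 and 1.37.

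The clamp, the clamp loader and the single-strand binding protein RPA held the fewest calls for their number. In wild type 2 of 9 were lower, which is near the 23.3% of all genes tested. In the hearts labelled knockout 4 of 9 were lower, against 13.2% of all genes. Pcna, the sliding clamp, had an FPKM of 13.9, 15.5 and 14.6 in wild type at P1 and 10.5, 9.62 and 5.68 at P21. The knockout-labelled values were 9.72, 19.1 and 28.6 at P1 and 8.08, 13.4 and 7.58 at P21. The wild-type groups did not overlap and the others did, and the changes were -0.78 (SE 0.36, adjusted p = 0.0937) and -0.87 (SE 0.36, adjusted p = 0.0972). Rpa3, the smallest RPA subunit, had 9.08, 12.3 and 13.7 FPKM in wild type at P1 and 13.6, 17.9 and 9.76 at P21. Under the knockout label it had 13.3, 12.3 and 17.1 at P1 and 10.1, 19.2 and 9.22 at P21. The groups overlapped in both genotypes, with changes of 0.21 (SE 0.29, adjusted p = 0.589) and -0.20 (SE 0.29, adjusted p = 0.656). Rpa1 and Rpa2, the other RPA subunits, passed in neither genotype.

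Among the 5 subunits of the clamp loader, Rfc1 and Rfc3 fell in both genotypes. Rfc1, the large subunit, had an FPKM of 7.37, 8.35 and 7.68 in wild type at P1 and 5.36, 5.28 and 4.91 at P21. In knockout-labelled hearts it had 6.61, 8.02 and 7.88 at P1 and 4.99, 4.60 and 4.82 at P21. The fall was small and even, by 0.55 on the log2 scale (SE 0.14, adjusted p = 0.00793) in wild type and by 0.59 (SE 0.14, adjusted p = 0.00924) in the hearts labelled knockout. Rfc2 had 7.25, 6.03 and 7.03 FPKM in wild type at P1 and 7.39, 8.93 and 4.78 at P21. In hearts labelled knockout it had 6.03, 8.98 and 8.23 at P1 and 5.00, 6.25 and 4.84 at P21. Its change was 0.01 (SE 0.23, adjusted p = 0.964) in wild type and -0.48 (SE 0.23, adjusted p = 0.140) in the hearts labelled knockout. The direction in wild type reverses without either of wild-type P21 libraries 1 and 2. Rfc4 changed by -0.25 (adjusted p = 0.555) in wild type and by -1.27 (adjusted p = 0.0145) in the hearts labelled knockout. The span of Rfc4 overlaps Eif4a2 on the other strand, and the part of its reads was not tested.

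Of the polymerase and ligase genes, 4 of 7 tested fell in each genotype, and they were the same genes: Pola1, Prim1, Pole and Lig1. Of all genes tested, 23.3% fell in wild type and 13.2% in the hearts labelled knockout. Pola1, Prim1 and Pole passed the filter only with P1 libraries. Lig1, the ligase that seals Okazaki fragments, had an FPKM of 9.29, 8.90 and 4.89 in wild type at P1 and 2.02, 1.09 and 0.638 at P21. The knockout-labelled values were 2.82, 10.5 and 9.57 at P1 and 1.27, 0.854 and 1.54 at P21. No P21 library reached a P1 library, and the change was -2.26 (SE 0.45, adjusted p = 0.00228) in wild type and -2.08 (SE 0.45, adjusted p = 0.00638) in the hearts labelled knockout. Pold1, the catalytic subunit of polymerase delta, had 5.70, 4.77 and 3.68 FPKM in wild type at P1 and 3.61, 3.10 and 3.58 at P21. Under the knockout label it had 3.45, 7.11 and 7.34 at P1 and 4.38, 3.79 and 4.39 at P21. It changed by -0.39 (SE 0.25, adjusted p = 0.222) and -0.40 (SE 0.25, adjusted p = 0.274). Within the polymerase alpha and primase complex, Pola1 changed by -1.23 (adjusted p = 0.0133) and Prim1 by -1.97 (adjusted p = 0.00115) in wild type. The partner subunits Pola2 and Prim2 changed by -0.30 (adjusted p = 0.219) and -0.67 (adjusted p = 0.164) and passed in neither genotype.

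Rrm2, the regulated subunit of ribonucleotide reductase, which makes the building blocks of DNA, had the largest fall of the 47 genes in both genotypes on the log2(FPKM + 0.5) scale. Its FPKM was 24.4, 22.3 and 6.82 in wild type at P1 and 0.326, 0.556 and 0.486 at P21. In knockout-labelled hearts it had 6.32, 30.3 and 24.5 at P1 and 1.01, 0.608 and 0.349 at P21. Wild-type library 3 and labelled knockout library 1 were low among the P1 libraries and still above every P21 library. The log2 change was -4.08 (SE 0.56, adjusted p = 0.000300) in wild type and -3.95 (SE 0.56, adjusted p = 0.000636) in the hearts labelled knockout, and the P1 mean was 39.1 and 31 times the P21 mean. By that ratio in wild type, Gins2 at 52.0 and Ccne1 at 43.6 stood above Rrm2. Rrm1, its partner, fell by 2.07 and 2.06, and the ratio of Rrm2 to Rrm1 FPKM was 1.37 to 2.71 at P1 and 0.209 to 0.725 at P21. The change of Rrm2 in the hearts labelled knockout was -4.63 without P1 library 1. Rrm2, Gins2 and Ccne1 passed the filter only with P1 libraries, so a lower P21 value was built into their selection.

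Tk1 and Tyms, which make thymidine nucleotides by salvage and from dUMP, fell in both genotypes, with log2 changes of -2.90 and -1.08 in wild type and of -2.27 and -1.28 in the hearts labelled knockout. Dut, the dUTPase that keeps uracil out of DNA, had an FPKM of 10.8, 9.83 and 10.1 in wild type at P1 and 11.8, 12.6 and 10.1 at P21. In hearts labelled knockout it had 7.08, 13.5 and 15.7 at P1 and 9.46, 11.1 and 6.02 at P21. The groups touched or overlapped, and the changes of 0.15 (SE 0.28, adjusted p = 0.678) and -0.40 (SE 0.28, adjusted p = 0.331) did not pass.

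The genes that copy chromatin and DNA methylation were all 4 lower in wild type, against 23.3% of all genes tested. In the hearts labelled knockout 3 of 4 were lower, against 13.2%. Chaf1a and Chaf1b passed the filter only with P1 libraries, so their part in these counts was favoured by the selection. Uhrf1, which brings the maintenance methyltransferase to new DNA, had an FPKM of 10.9, 9.81 and 5.13 in wild type at P1 and 1.39, 0.442 and 0.510 at P21. The knockout-labelled values were 2.67, 15.4 and 12.1 at P1 and 1.36, 1.05 and 1.44 at P21. It fell without overlap, by 2.84 on the log2 scale (SE 0.52, adjusted p = 0.00154) and by 2.28 (SE 0.52, adjusted p = 0.00892). Dnmt1, that methyltransferase, had 11.7, 10.4 and 5.06 FPKM in wild type at P1 and 3.22, 0.835 and 3.67 at P21. Under the knockout label it had 3.64, 11.4 and 9.10 at P1 and 3.33, 2.07 and 3.61 at P21. The change was -1.72 (SE 0.49, adjusted p = 0.0151) and -1.18 (SE 0.49, adjusted p = 0.102), and the adjusted p in wild type was 0.0556 without P21 library 2, 0.0611 without P1 library 1 and 0.0555 without P1 library 2. Chaf1a and Chaf1b, subunits of the histone chaperone CAF-1, fell, with log2 changes of -1.71 and -2.34 in wild type and of -1.86 and -2.08 in the hearts labelled knockout.

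E2f1, an activator of S phase genes, fell from 7.65, 7.27 and 4.70 FPKM at P1 to 0.205, 0.217 and 0.546 at P21 in wild type. In the hearts labelled knockout it fell from 3.92, 11.4 and 11.5 to 0.621, 0.191 and 0.587. The groups lay far apart in both genotypes, with changes of -3.09 (SE 0.38, adjusted p = 0.000163) and -3.18 (SE 0.38, adjusted p = 0.000204). E2f1 and all the other E2F and cyclin E genes of the set passed the filter only with P1 libraries. A lower P21 value was thus built into their selection. E2f7 and E2f8, which repress E2F targets, fell in wild type by 1.38 and 1.80. In the hearts labelled knockout E2f8 fell by 1.22 (adjusted p = 0.0384) and E2f7 changed by -1.01 (adjusted p = 0.0625). Ccne1, a cyclin E gene, had an FPKM of 3.71, 4.66 and 2.14 in wild type at P1 and 0, 0.129 and 0.113 at P21. In knockout-labelled hearts it had 1.77, 5.96 and 5.62 at P1 and 0.543, 0.724 and 0.333 at P21. It fell in both genotypes, with changes of -2.74 (SE 0.39, adjusted p = 0.000358) and -2.13 (SE 0.39, adjusted p = 0.00262), and its wild-type P21 values rest on 0, 2 and 4 reads. Ccne2, the other cyclin E gene, and E2f2 passed in neither genotype.

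**Figure D4:**
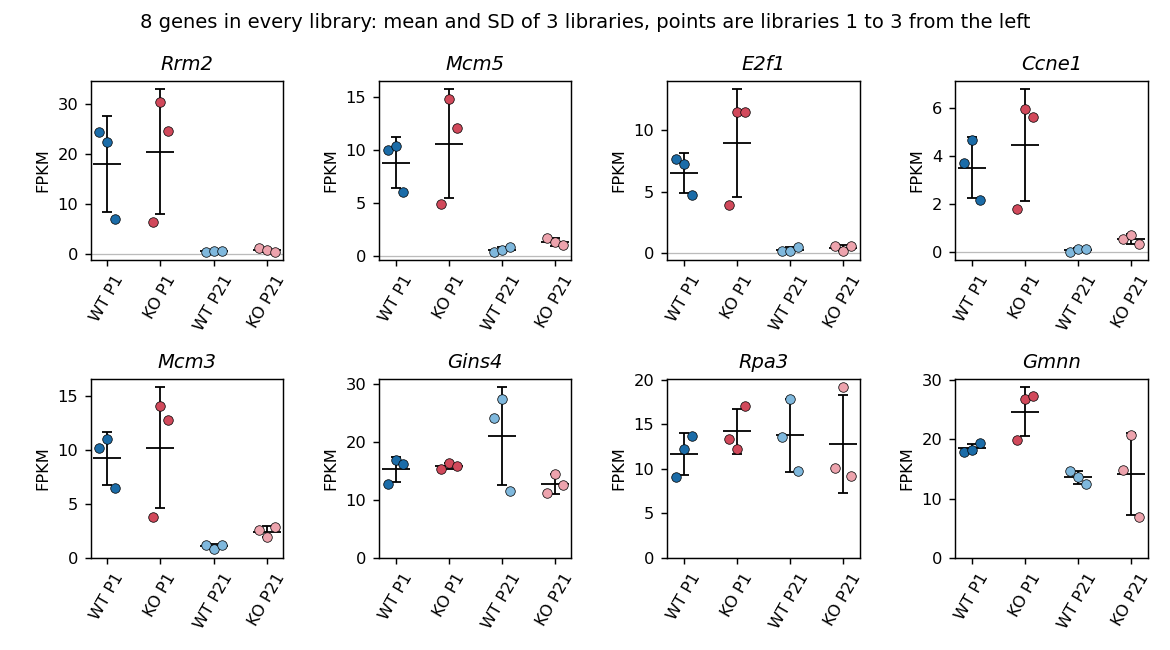
FPKM of 8 genes is plotted for each library (points, libraries 1 to 3 from the left), with the mean and SD of 3 libraries, for wild type (WT) and labelled knockout (KO) at P1 and P21. Rrm2, Mcm5, E2f1, Ccne1 and Mcm3 lie at 2.83 FPKM or below in every P21 library, while Gins4, Rpa3 and Gmnn stay at 6.87 FPKM or above in every library.

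Other genes of the same pathways gave a smaller share of falls. Of all genes tested, 23.3% fell and 21.5% rose in wild type, and 13.2% fell and 11.8% rose in the hearts labelled knockout. Of 41 tested among 43 further replication and S phase genes, 20 fell and none rose in wild type, with a median change of -0.74, and 19 fell in the hearts labelled knockout, with a median of -0.75. Rbbp4, a histone-binding partner of CAF-1, changed by -1.13 (SE 0.15, adjusted p = 0.000229) in wild type. Of 18 tested among 19 further E2F, Rb and G1/S control genes, 9 fell and 1 rose in wild type, and 6 fell and 1 rose in the hearts labelled knockout. Ccna2, the cyclin A gene of S phase and mitosis, changed by -3.67 (SE 0.54, adjusted p = 0.000456) in wild type, and E2f3 by -1.64 (SE 0.22, adjusted p = 0.000256). E2f5, a partner of the pocket proteins that repress E2F targets, rose by 0.73 (SE 0.25, adjusted p = 0.0316) and was the exception in wild type, named after its value was seen. Of 34 genes of mitosis and cytokinesis, 33 fell in wild type with a median of -2.75 and 32 in the hearts labelled knockout with a median of -2.52. Of 10 tested among 12 G1 cyclins, Cdk4 and Cdk6 and their inhibitors, 7 fell and 1 rose in wild type. The gene that rose was Cdkn1a, the Cdk inhibitor p21, at 1.92 (SE 0.52, adjusted p = 0.0118), named after its value was seen. In the hearts labelled knockout 5 of the 10 fell and none rose, and the highest change in the list was 0.34. At P21 the summed FPKM of the 12 genes was 216 in wild-type library 1 and 103 to 114 in the other libraries. The part of Cdkn1a in that sum was not tested.

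At P1 none of the 47 genes passed the test between the genotypes. The adjusted p was 1 for every one in limma, and none was called among all genes tested either (0 of 13537, or 0%). At an unadjusted p under 0.05 the count was 0 of 47, against 0.606% of all genes, and voom on the recovered reads also called none. The median difference of labelled knockout minus wild type was 0.07, with 29 positive and 18 negative. Under TPM it was -0.03 with 22 positive, where the median of all genes was -0.10. Gmnn was higher without overlap, against 4.52% of all genes, at 19.9, 26.8 and 27.3 FPKM in the libraries labelled knockout and 17.9, 18.2 and 19.4 in wild type. Its log2 difference was 0.39 (SE 0.31). None of the 47 was lower without overlap, against 3.44% of all genes. Rfc4 had 7.04, 10.6 and 15.9 FPKM in the libraries labelled knockout and 7.54, 7.37 and 6.27 in wild type, a difference of 0.56 (SE 0.32). E2f8 had 0.262, 1.41 and 1.74 in the libraries labelled knockout and 1.94, 1.80 and 1.08 in wild type, a difference of -0.48 (SE 0.39). Both overlapped between the genotypes.

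Libraries of the same genotype differed from each other at P1. Labelled knockout library 1 was the lowest of the 6 P1 libraries for 41 of the 47 genes, against 20.4% of all genes tested. Library 2 was the highest for 18 and library 3 for 23, against 14.4% and 21.9% of all genes. The summed FPKM of the 49 genes was 198, 418 and 421 in the libraries labelled knockout and 327, 336 and 244 in wild type. At P21 it was 112 to 157 in the libraries labelled knockout and 117 to 163 in wild type, so the lowest P1 library stayed above every P21 library. Labelled knockout library 1 lay below the mean of libraries 2 and 3 for all 47 genes, against 6803 of the 13537 tested. The median gap was -1.19 on the log2 scale, where the median over all genes was 0.00. Wild-type library 3 lay below the mean of libraries 1 and 2 for 40 of 47, against 6805 of the 13537. Its median gap was -0.45, and -0.0017 over all genes.

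Genes with a larger fall with age tended to lie lower in those libraries. Across the 47 genes, the gap of labelled knockout library 1 and the age change in wild type, which share no library, had a Pearson r of 0.791 and a Spearman rho of 0.786, against 0.199 and 0.186 over all genes tested. The gap of wild-type library 3 and the age change in the hearts labelled knockout had 0.730 and 0.703, against 0.258 and 0.276. Uhrf1 and Rrm2 had gaps of -2.16 and -2.03 in labelled knockout library 1, and Gins4 had -0.06. The mitosis genes had a summed FPKM over 34 genes of 75.9, 292 and 324 in the libraries labelled knockout and 257, 227 and 136 in wild type. These are descriptions across genes, which are not independent, in libraries picked after their values were seen. The 0.5 added to each FPKM shrinks both the gap and the age change of low genes.

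**Figure D5:**
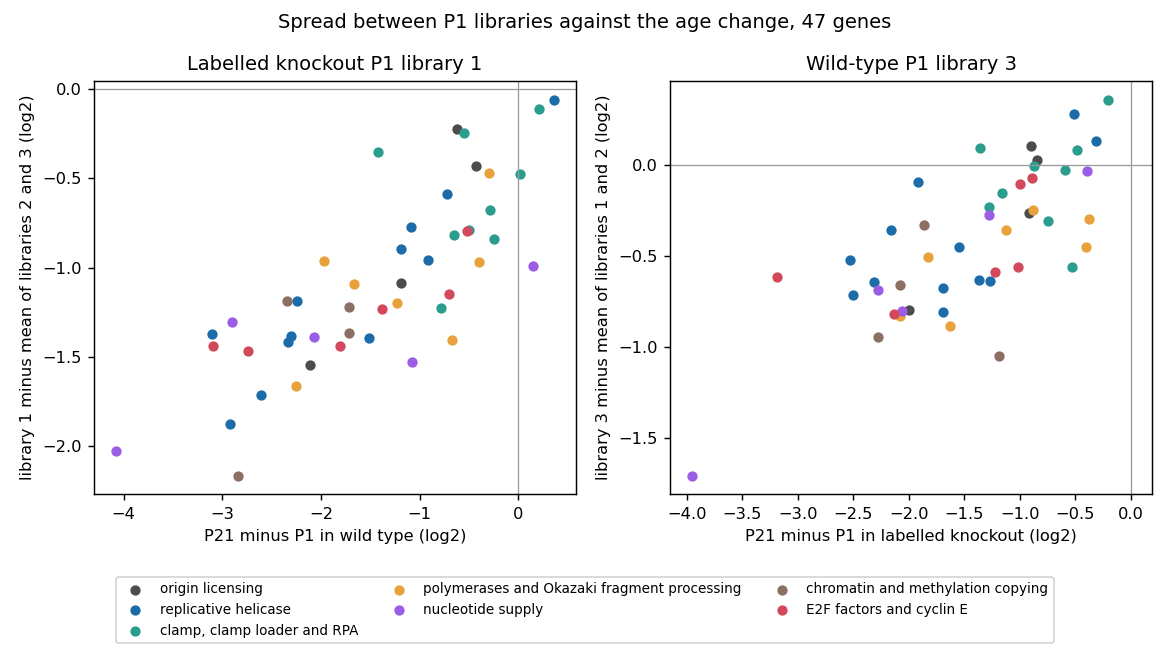
Each of the 47 genes is placed by its age change on the x axis and by the gap of 1 P1 library from the mean of the other libraries of its group on the y axis, both in log2(FPKM + 0.5). Left, labelled knockout library 1 against the age change in wild type; right, wild-type library 3 against the age change in the hearts labelled knockout. All points of the left panel lie below 0, and the gap widens toward genes with a larger fall.

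Other measures of labelled knockout library 1 and wild-type library 3 are given beside the gaps. The depth of labelled knockout library 1 was 14 M reads, within the 13.2 to 15.9 M of the P1 libraries. Its summed FPKM was 10003 for 10 heart muscle markers, where the other P1 libraries had 9987 to 14717, and 311 for 7 fibroblast markers, where they had 414 to 670. For 8 lymphocyte and neutrophil markers it was 38.5 against 17.6 to 34.9, and Cd79a, Cd3e, Ms4a1, S100a8, Ngp and Camp of that list were at 0 in at least 1 of the 12 libraries. For 7 endothelial markers it was 183 against 193 to 235. Wild-type library 3 had the lowest sum at P1 for 7 smooth muscle and pericyte markers, 163, next to 183 in labelled knockout library 1 and 280 to 308 in the others. It had the highest sum for 7 macrophage markers, 53.8 against 31.9 to 45.1. The part of these markers in the gaps was not tested. Without labelled knockout library 1 the P1 genotype difference was positive for 46 of the 47 genes. The median was 0.46, against 0.00024 over all genes, and none of the 47 passed the threshold. At an unadjusted p under 0.05 there were then 7 genes, against 0.901% of all genes. That library was picked because it was low for these genes. A shift toward positive differences on leaving it out follows from that choice and is no sign of a genotype effect. Other libraries left out turned the direction, with 35 of 47 negative and a median of -0.10 without labelled knockout library 3, 29 negative without its library 2 and 28 negative without wild-type library 3. The age comparison in the hearts labelled knockout called 37 genes without P1 library 1 and 21 without either of P1 libraries 2 and 3.

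At P21 none of the 47 genes passed the test between the genotypes either, against 0.0665% of all genes, and 2 had an unadjusted p under 0.05, against 13.8%. Wild-type library 3 alone decides the count over all genes, which was 9 with it and 1814, or 13.4%, without it. The median difference of the 47 genes was 0.03, with 25 positive and 22 negative. This balance depended on the scaling. Under TPM the median was 0.29 with 38 positive, where the median of all genes was 0.34. With mitochondrial and top 20 genes left out of the scaling it was 0.30 with 40 positive, against 0.33 over all genes. Counts without overlap are those of the deposited scaling. All 3 libraries labelled knockout lay above all 3 wild-type libraries for 8 genes, Mcm3, Mcm4, Mcm5, Mcm6, Gins2, Chaf1b, Pold1 and Ccne1, and below them for none. The background was 6.90% of all genes for higher and 5.05% for lower. Mcm3 had an FPKM of 2.54, 1.89 and 2.83 in the libraries labelled knockout and 1.20, 0.821 and 1.16 in wild type. Mcm4 had 2.54, 2.55 and 2.74 in the libraries labelled knockout and 2.19, 1.05 and 1.29 in wild type. These ring subunits and Mcm5 were higher without overlap, but the differences of 0.90 (SE 0.40, adjusted p = 0.349), 0.67 (SE 0.31, adjusted p = 0.370) and 0.77 (SE 0.36, adjusted p = 0.372) did not pass. The reads behind Mcm3 were 112, 59 and 132 in the libraries labelled knockout and 35, 18 and 58 in wild type. Gins2, Chaf1b and Ccne1 had the fewest reads of the 8 genes. Gins2 had 11, 22 and 8 under the knockout label and 0, 0 and 7 in wild type. Chaf1b had 13, 9 and 15 against 5, 0 and 9, and Ccne1 had 17, 16 and 11 against 0, 2 and 4. Wild-type libraries 1 and 2 were the shallow ones.

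Gins4, Gins1 and Rfc2 had the smallest p on the lower side at P21, and none passed. Gins4 differed by -0.61 (SE 0.27, adjusted p = 0.349), Gins1 by -0.96 (SE 0.44, adjusted p = 0.364) and Rfc2 by -0.33 (SE 0.23, adjusted p = 0.513). Gins1 had 1.12, 1.27 and 0.106 FPKM in the libraries labelled knockout and 3.41, 1.58 and 1.09 in wild type, with overlap. Without wild-type library 3, which leaves the shallow libraries 1 and 2, Gins4 was lower by the test, with a difference of -0.99 (adjusted p = 0.00859). Gins4 was the 1 of 47 genes called in that fit, where 13.4% of all genes were. Without wild-type libraries 1 and 2 the difference of Gins4 was 0.14, and that of Rfc2 was 0.14. In the same comparison the summed FPKM of 7 fibroblast markers was 465 to 655 in the libraries labelled knockout and 266 to 407 in wild type. That of 7 endothelial markers was 229 to 270 in the libraries labelled knockout and 290 to 414 in wild type. The part of either list was not tested.

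The difference between the genotype effects at P21 and at P1 passed the test for none of the 47 genes and for none of all genes (0 of 13537, or 0%). At an unadjusted p under 0.05 there was 1 gene, Rfc4, against 6.94% of all genes, and voom on the recovered reads called none of the 47. The median was -0.008 with 22 positive as deposited. Under TPM it was 0.38 with 38 positive, where the median of all genes was 0.45. The largest positive differences by p were those of Mcm3 at 0.92 (SE 0.56, adjusted p = 0.690), Mcm4 at 0.70 (SE 0.44, adjusted p = 0.690) and Mcm5 at 0.61 (SE 0.51, adjusted p = 0.736). On the negative side stood Rfc4 at -1.03 (SE 0.46, adjusted p = 0.687), Gins1 at -1.24 (SE 0.63, adjusted p = 0.687) and Gins4 at -0.67 (SE 0.38, adjusted p = 0.687). Without wild-type P21 library 3, which leaves the shallow libraries 1 and 2, Gins4 was called in limma, at -1.05 (adjusted p = 0.0473). That fit called 293 of all genes, or 2.16%.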

How the data were processed

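RNA from mouse heart was sequenced in 12 libraries, with groups and replicate numbers taken from the sample titles. The authors deposited FPKM values per gene. The submitters' processing notes name TopHat2 2.0.13, featureCounts, Subread, edgeR and FastQC, along with the builds GRCm39, mm10 and GRCh38 with no role. The sources used here do not say which build the deposited coordinates use, so promoters were joined by symbol. Reads were recovered from the FPKM steps, with 100% of nonzero values whole within 0.05 of a read.

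Genes that reached an FPKM of 1 in 3 or more libraries were fitted with limma 3.58.1 in R 4.3.3 (trend, robust) on log2(FPKM + 0.5), with 1 mean per group over 12 libraries and Benjamini-Hochberg adjustment over 13537 genes. Fold changes on that scale understate low genes. The fit was tested on simulated data. Figures used matplotlib 3.10.9.

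Members and lists were chosen with earlier results of these data known. Given by library were the 2 most abundant genes of each role, up to 3 higher and 3 lower genes per comparison by unadjusted p, those against the median's sign in the wild-type age change, and Csrp3. Cdt1 was added after its values were seen. Other lists name up to 3 genes each by unadjusted p. Alternatives were other pseudocounts, filters, scalings, model options, voom on recovered reads, the replicate number as a block, and left-out libraries. One further marker list is not reported here.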

Additional observations from a re-analysis of the deposited data

How the results depend on the processing

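The age counts depended on the scaling. Genes lower in wild type numbered 47 under TPM and 47 after rescaling without mitochondrial and top 20 genes, and 46 and 40 in the hearts labelled knockout, against 30 in each as deposited. Over all genes tested, 62.1% and 53.9% were then lower in wild type, against 23.3% as deposited, and 36.3% and 21.4% in the hearts labelled knockout, against 13.2%. Leaving out 1 library in turn gave 23 to 31 in wild type and 21 to 37 in the hearts labelled knockout. It gave 0 at P1 between genotypes, and 0 to 1 at P21 and 0 to 1 for the difference of the genotype effects, where the 1 was Gins4 without wild-type P21 library 3. In wild type with age, TPM and the rescaling without mitochondrial genes reversed Gins4 (-0.76 and -0.61), Rpa3 (-0.91 and -0.76), Dut (-0.96 and -0.80) and Rfc2 (-1.09 and -0.92). These scalings moved the median of all genes by -1.06 and -0.84, so changes near 0 turn negative by construction, and the reversals say nothing particular to these genes. Leaving out wild-type P21 libraries 1 and 2 reversed the same genes, at -0.39, -0.23, -0.018 and -0.46, and gave 22 lower genes. Rfc2 also reversed with voom (-0.028), without wild-type P1 library 2 (-0.06) and without wild-type P21 library 1 (-0.04) or 2 (-0.17), in a range of -0.17 to 0.25 over single libraries left out. Between genotypes at P21, Rfc2 reversed under TPM (0.022), the rescaling without mitochondrial genes (0.071) and without wild-type libraries 1 and 2 (0.14), as did Gins4 there (0.14), and its difference of effects (0.079). At P1 Dnmt1 reversed without wild-type library 1 (0.0037) and without labelled knockout library 1 (0.24), in a range of -0.56 to 0.24, and Rfc1 without the latter (0.027), in a range of -0.10 to 0.027. Between genotypes at P21, TPM and the rescaling without mitochondrial genes moved the median of all genes by 0.333 and 0.330. That is close to the size of the Rfc2 difference of -0.33, so its reversals under them say nothing particular to Rfc2. The causes of the remaining reversals were not tested. Same-numbered libraries did not deviate together in every pair (correlations from -0.297 to 0.491). Between the genotypes at P21 the correlations were 0.0259, 0.491 and 0.352. With 3 libraries per group these values cannot decide whether the numbers pair the samples. With the replicate block the lower genes numbered 30 in wild type and 29 in the hearts labelled knockout, and 0 in the other comparisons. Low reads limit the precision at P21, where genes such as Ccne1 and Gins2 rest on few reads.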
